A study of Mus musculus with 6 samples.

Results

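Cxcl12 and its receptors Cxcr4 and Ackr3 are 3 of the 18193 genes named on the array, and were read by 5 of the 45101 probe sets, 3 for Cxcl12, 1 for Cxcr4 and 1 for Ackr3. These are all the probe sets that the array annotation assigns to exactly 1 of the 3 gene symbols. The samples were right and left pools of GFP-positive cervical spinal cord tissue from 3 mouse embryos of a single litter, taken at E11.5 and transgenic for HB9::GFP. There were 3 right and 3 left pools, each hybridised to an array of its own, and no pool received a treatment or carried a mutation. GFP is driven by the promoter of HB9 (Mnx1), a homeodomain factor of spinal motoneurons. The pools were cut from tissue sections by laser and therefore hold the marked motoneurons together with whatever cells lie among or against them. In such a pool, fewer cells of a type and less RNA per cell cannot be told apart.

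Cxcl12 is a secreted chemokine that binds a pair of membrane receptors. Cxcr4 couples to inhibitory G proteins and steers migrating cells and growing axons, whereas Ackr3 recruits arrestin without classical G protein signalling and removes Cxcl12 from the surroundings of a cell. In the mouse embryo, Cxcl12 is made by mesenchyme around the ventral neural tube and later by the meninges, and Cxcr4 is found on motoneurons whose axons leave the cord ventrally. Loss of either gene lets some of these axons turn towards the dorsal exit points.

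The value of a probe set is its MAS5 signal, a linear intensity that was scaled in the same way on every array. The 5 probe sets were compared between the sides as log2 of right over left signal, log2(R/L), within each embryo. The methods of the study asked for a highest signal of 200 and for a present call in at least 1 sample of each embryo. Present calls were not applied here, so a probe set was tested if its signal reached 200 in at least 1 pool, and 21853 did. It met the fold rule if its log2(R/L) had the same sign in all 3 embryos, and both the mean and at least 2 of the single ratios lay beyond 0.58 (1.5-fold). Of the tested probe sets, 524 (2.4%) met the rule with the higher signal on the right and 338 (1.55%) with the higher signal on the left. The limma model held a term for side and one for embryo, with Benjamini-Hochberg adjustment over the 21853. It called 0 probe sets at an adjusted p of 0.05, while 742 (3.4%) had an unadjusted p under 0.05, 419 (1.92%) with the higher signal on the right and 323 (1.48%) with the higher signal on the left. Signals of different probe sets depend on their probes, so levels are compared only between pools and not between genes.

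The ligand was uneven among the pools and the receptors were not uneven in the same way. In its brightest probe set (highest mean signal), Cxcl12 read 941, 94.5 and 93.1 in the right pools of embryos 1, 2 and 3, against 57.4, 14.7 and 85.1 in their left pools. The right pool of embryo 1 stood far above the other 5, and the lowest right signal lay only just above the highest left one, so the sides did not overlap. A separation of this kind, with the right pools higher, was seen in 651 (2.98%) of the tested probe sets. The mean was 376 ± 489 on the right and 52.4 ± 35.4 on the left (SD, n = 3 embryos), and the highest signal was 63.9 times the lowest.

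The log2(R/L) of this probe set was 4.04, 2.68 and 0.13 in embryos 1, 2 and 3, with a mean of 2.28 ± 1.98 (SD, n = 3). The signal was thus 16.4-fold and 6.41-fold higher on the right in embryos 1 and 2, and 1.09-fold higher in embryo 3. Only the right pool of embryo 1 lay above the median signal of its array. The right and left signals of embryo 2 were 0.81 and 0.14 of theirs, so the size of these ratios is uncertain. The fold rule was met, and the probe set ranked 77 of 21853 by mean ratio from right to left. By limma the unadjusted p was 0.0228 and the adjusted p = 0.974, with a 95% interval of 0.40 to 4.16 for the log2 ratio. The direction was shared by 3 of 3 embryos, but the rule was no longer met without embryo 1 (mean 1.405) or without embryo 2 (2.08). With 2 embryos the rule asks for both ratios, so with embryo 3 at 0.13 it could not be met. The same 21853 probe sets were kept when an embryo was left out. Without embryo 1 the highest signals of the tested Cxcl12 probe sets were 94.5 and 105, so with the limit applied anew neither would have been tested.

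**Figure D1:**
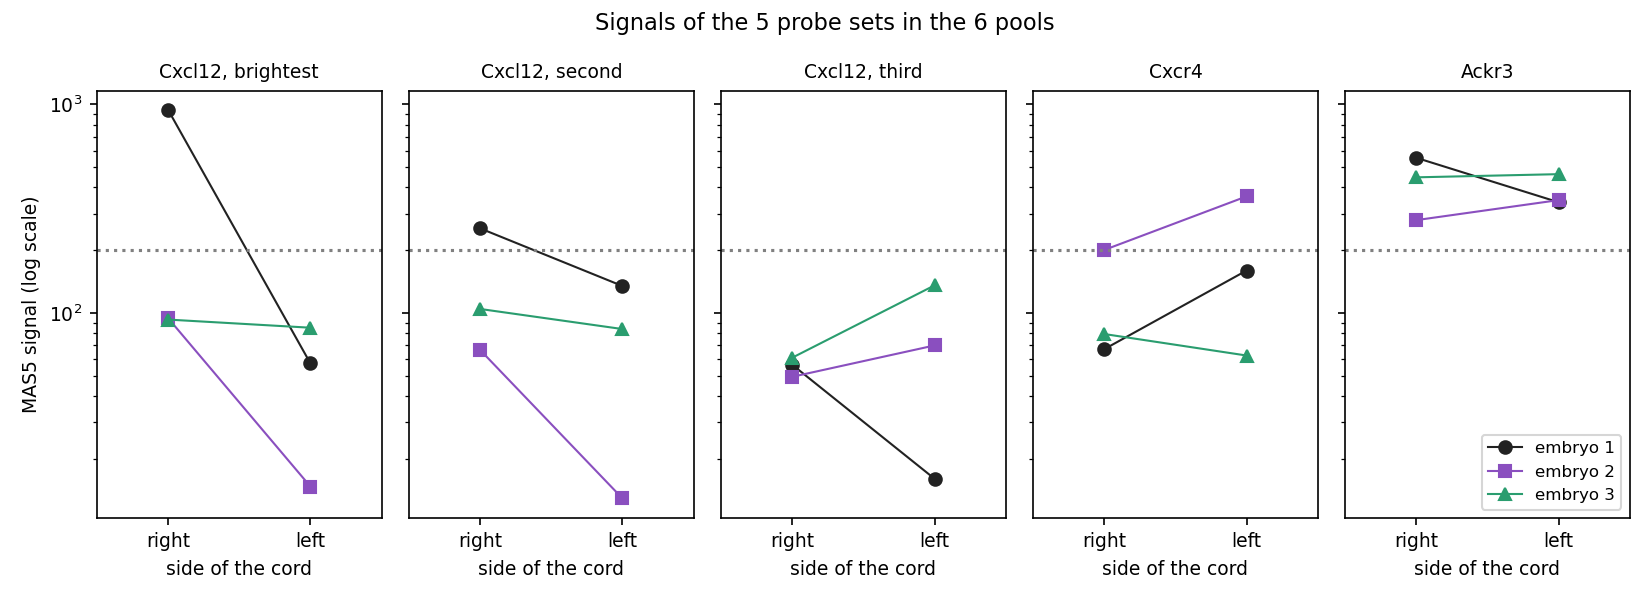
MAS5 signal (log scale) of the 3 Cxcl12 probe sets (ordered by mean signal) and of those for Cxcr4 and Ackr3 in the right and left pool of each of 3 embryos, with lines joining the pools of an embryo and a dotted line at the limit of 200. Cxcl12 reached 941 in the right pool of embryo 1 only, Cxcr4 was highest in both pools of embryo 2, and Ackr3 stayed above the limit in all 6 pools.

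Cxcl12 transcripts end in different exons, and the array holds a further pair of probe sets for the gene. The second brightest read 255, 66.5 and 105 on the right, against 135, 12.9 and 83.8 on the left, so that the sides overlapped although the right pool was higher in each embryo. Its log2(R/L) was 0.92, 2.36 and 0.32, with a mean of 1.20 ± 1.05 (limma adjusted p = 0.974). It met the fold rule, and with embryo 3 at 0.32 could not meet it without embryo 1 or without embryo 2. The order of the embryos differed from that of the brightest probe set, with the largest ratio in embryo 2 rather than in embryo 1. In embryo 2 both probe sets had their lowest signal on the left.

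The third never reached the limit and was not tested. It read 56.5, 49.5 and 61.1 on the right, against 16.1, 69.9 and 136 on the left. Its log2(R/L) was 1.81, −0.50 and −1.15, with a mean of 0.05 ± 1.56. The sign thus changed between embryos, and the right pool was higher in 1 of 3. Over the 6 pools, log2 signals of the brightest probe set correlated with those of the second at 0.86 and with those of the third at 0.03 (Pearson, pools of 3 embryos, as a description).

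Both tested Cxcl12 probe sets passed the limit of 200 through the right pool of embryo 1 alone. Of the tested probe sets, 622 did so, and 546 of these (87.8%) were higher on the right on average, against 52.5% of all tested probe sets. The fold rule was met on the right by 101 of the 622 (16.2%) and on the left by 0. The calls for Cxcl12 are to be read against this share. The array of that pool also stood apart in its spiked control BioB, at 1175 against 708 to 882 on the other 5, and in the ratio of actin 3' to 5' signal, at 2.51 against 1.90 to 2.24, but not in that of GAPDH, at 3.25 against 2.65 to 3.37. The part of these differences in the Cxcl12 signal was not tested.

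Cxcr4, the signalling receptor, was highest in embryo 2 on both sides. It read 67.1, 201 and 79.3 in the right pools of embryos 1, 2 and 3, against 160, 362 and 62.6 in the left pools. Both pools of embryo 2 lay above the other 4, and the sides overlapped. Averaged over both sides, the signal was 282 in embryo 2, against 114 in embryo 1 and 71.0 in embryo 3. Only the pools of embryo 2 reached the limit of 200. The log2(R/L) was −1.25, −0.85 and 0.34, with a mean of −0.59 ± 0.83 (SD, n = 3), so the right pool was lower in embryos 1 and 2 and higher in embryo 3. The fold rule was not met, and limma gave an adjusted p = 0.974 with a 95% interval of −1.79 to 0.62. A 2-fold difference in favour of the left thus lies inside the interval. Without embryo 3 the mean was −1.05 and the rule was met on the left, which follows from the ratios of embryos 1 and 2 given above.

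Ackr3, the scavenging receptor, was the steadiest of the 3 genes. It read 555, 279 and 447 on the right, against 340, 348 and 463 on the left. All 6 pools were above 200, and the highest signal was 1.99 times the lowest, against 5.79 times for Cxcr4 and 63.9 times for the brightest Cxcl12 probe set. Above the median of its array lay 1 pool for that Cxcl12 probe set, 3 for Cxcr4 and 6 for Ackr3. Steadiness thus cannot be told apart from signal level here. The mean of Ackr3 was 427 ± 139 on the right and 384 ± 69.1 on the left. The log2(R/L) was 0.71, −0.32 and −0.05, with a mean of 0.11 ± 0.53 (adjusted p = 0.983 by limma, 95% interval −0.53 to 0.75). Embryo 1 alone was past 1.5-fold, the sides overlapped, and without embryo 1 the mean was −0.18, opposite in sign.

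**Figure D2:**
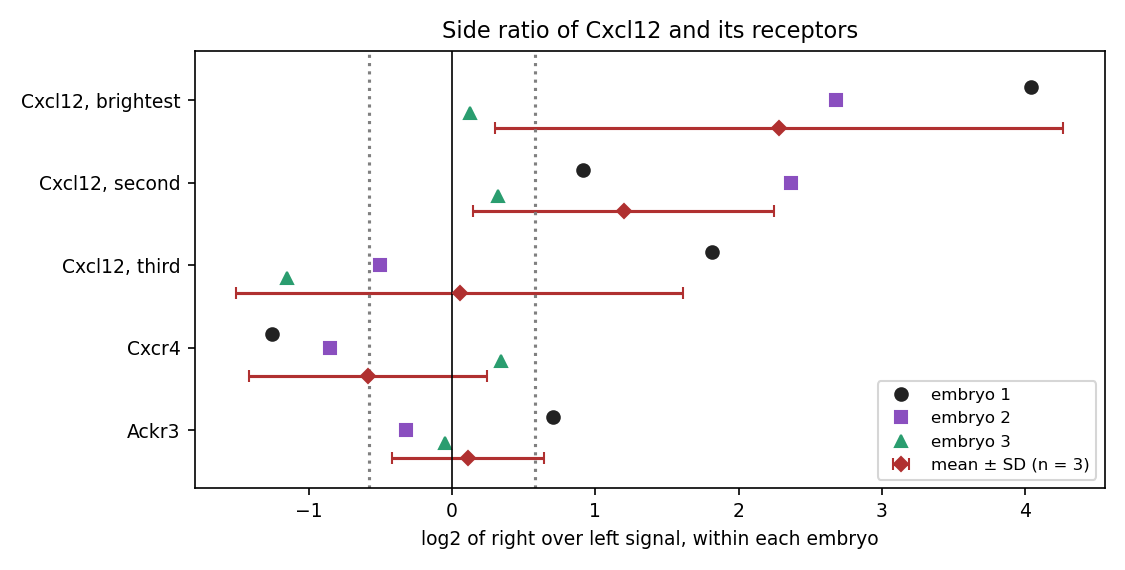
Log2 of right over left signal in each of 3 embryos for the 5 probe sets, with the mean and SD (n = 3) as a diamond and bar, a solid line at 0 and dotted lines at the 1.5-fold limit. The tested Cxcl12 probe sets lie to the right of 0 in all 3 embryos, with embryo 3 at 0.13 and 0.32, whereas Cxcr4 and Ackr3 lie on both sides of 0.

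Whether the ligand differed from its receptors in the side ratio was tested within the embryos. The Cxcl12 probe set entered this test through the right pool of embryo 1, where it is high, so a difference towards the right was favoured beforehand. The log2(R/L) of Cxcl12 minus that of Cxcr4 was 5.29, 3.53 and −0.21 in embryos 1, 2 and 3, with a mean of 2.87 ± 2.81 (SD, n = 3). It was above 0 in 2 of 3 embryos, and the exact sign-flip permutation test, two-sided, gave p = 0.5. Against Ackr3 the difference was 3.33, 3.00 and 0.18, with a mean of 2.17 ± 1.73. It was above 0 in 3 of 3 embryos, with an exact p = 0.25, the smallest that 3 embryos can give, and 0.5 after adjustment over the 2 comparisons. Neither difference could be called with this number of embryos. With the mean of all 3 Cxcl12 probe sets in place of the brightest, the differences were 1.77 against Cxcr4 and 1.07 against Ackr3, each above 0 in 2 of 3 embryos (exact sign-flip p = 0.5 for both).

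In the embryo with the largest ligand ratio, Cxcr4 was lower on the right and Ackr3 higher. Over the 6 pools, log2 signals of Cxcl12 correlated at −0.73 with Cxcr4 and at 0.64 with Ackr3, and those of the 2 receptors at −0.81. These are descriptions over 6 pools, which share embryos and sections in pairs.

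Since mesenchyme and meninges are known sources of the ligand, markers of the cells that a capture could hold were read in the same pools. Among 18 mesenchyme genes, 13 were tested, and 6 met the fold rule on the right and 0 on the left. On the right, 2.08% of all tested genes met it. The median log2(R/L) of the list was 1.497, against 0.02 over all tested probe sets. The list median was 2.91, 1.17 and 0.01 in embryos 1, 2 and 3, beside 4.04, 2.68 and 0.13 for Cxcl12. The 6 were the collagens Col1a2, Col5a1 and Col6a1, the matrix protein Fbln1, the matricellular Ccn2 and the homeodomain factor Meox2. Col1a2, the brightest of the list, read 8264, 946 and 793 on the right, against 882, 292 and 740 on the left. Its bright pool was the same as that of Cxcl12. Dcn, a small proteoglycan, had the largest mean ratio (2.99 ± 3.37) but was lower on the right in embryo 3 (−0.16), and Fn1 had the smallest (0.45 ± 0.65).

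The summed signal of the 18 mesenchyme genes was 21942, 4811 and 3731 on the right, against 3709, 2401 and 3787 on the left. The right pool of embryo 1 thus stood apart in the mesenchyme sum as it did in Cxcl12, and the left pool of embryo 2 was lowest in both. Log2 of the sum correlated with log2 of Cxcl12 at 0.96 over the 6 pools, as a description. The same coefficient was 0.75 for meninges and 0.74 for muscle precursors, whose sums were also highest in the right pool of embryo 1. It was 0.57 for blood and microglia and −0.03 to 0.42 for the remaining cell types. Of the 13 tested mesenchyme genes, 7 reached 200 on the right only and 4 in the right pool of embryo 1 alone. Col5a1 and Meox2 were among the 4, and 16.2% of all such probe sets met the rule on the right. With no limit, the median of all 18 was 1.29, and without embryo 1 the rule was met by 2 of 13, Col6a1 and Meox2. In embryos 2 and 3 Meox2 read 32.7 at most, so with the limit applied anew it would not have been tested. Among the transcription factors of the list, Prrx1 reached 633 and 256 in the right pools of embryos 1 and 2 and Meox2 reached 347 in that of embryo 1. The others stayed under 200 in every pool, with highest signals of 128 for Twist1, 135 for Twist2, 110 for Meox1, 106 for Pax1 and 94.2 for Pax9. With no limit, 7 of the 18 mesenchyme genes met the fold rule on the right and 1 on the left, Pax9, at −1.94, −0.96 and −0.96. The part of mesenchyme in the Cxcl12 signal was not tested.

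Markers of meninges, the membranes around the cord, were read in the same way. Of 8 genes, 5 were tested, and 2 met the fold rule on the right, Ogn, a small proteoglycan, and Zic1, a zinc finger factor that also marks the dorsal neural tube. On the right, 2.08% of all tested genes met it. The list median was 1.61, with 2.78, 2.27 and 0.06 in embryos 1, 2 and 3, and 4 of the 5 reached 200 on the right only. Ogn was 1 of 2 that did so in the right pool of embryo 1 alone. Of all such probe sets, 16.2% met the rule on the right. Without embryo 1, or without embryo 2, the rule, which then asks for both remaining ratios, was met by 1 of 5, Ogn. In embryos 2 and 3 Ogn read 57.8 and 8.52 on the right, against 12.0 and 4.51 on the left. With the limit of 200 applied anew, it would not have been tested without embryo 1. Zic1 read 1745, 693 and 150 on the right, against 72.6, 24.5 and 137 on the left. Its log2(R/L) of 4.59, 4.82 and 0.13 was close to that of Cxcl12 in embryo 3 and larger in embryos 1 and 2. Foxc1, a forkhead factor of mesenchyme and meninges, had 1.88, 3.05 and −0.10. Crabp2, the brightest of the list and also expressed in spinal neurons, differed little (0.07 ± 0.12), and Foxc2, Tbx18 and Slc6a13 stayed under 200. The summed signal of the list, most of it from Crabp2, was 10462 to 13324 on the right and 8692 to 10231 on the left.

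Muscle precursors also express Cxcr4 when they migrate. Of 8 such genes 5 were tested, and 1, Myog, met the rule on the right, with 347, 14.0 and 12.9 on the right against 56.9, 4.05 and 11.2 on the left. It was 1 of 3 tested genes of the list that reached 200 in the right pool of embryo 1 alone, and 16.2% of all such probe sets met the rule on the right. With a log2(R/L) of 0.20 in embryo 3, Myog could not meet the rule without embryo 1 or without embryo 2. The list sum was 3804 in the right pool of embryo 1 and 982 to 1323 in the other 5. Actc1 alone read 2236 in the right pool of embryo 1. Lbx1, the brightest of the list, read 126 there and was highest in the left pool of embryo 2 (819). Cxcr4 read 67.1 in the right pool of embryo 1. The part of muscle precursors in the Cxcr4 signal was not tested.

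Motoneuron markers set the scale for the cells the capture aimed at. Of 11 genes, all were tested and 0 met the fold rule, with means between −0.24 (Ret) and 0.09 (Lhx3) and a median of −0.04. Their summed signal was 28680 to 47816 on the right and 28773 to 47667 on the left, with Prph, a neuronal intermediate filament, as the brightest. On both sides the sum was highest in embryo 1 and lowest in embryo 3. Among the factors of ventrally exiting motoneurons, 6 of 7 were tested and 0 met the rule. With 3.94% of all tested probe sets meeting it on either side, counts of 0 in both lists say little about motoneurons. Lhx3, which together with Lhx4 sets this exit in the mouse, read 3847, 3263 and 3467 on the right, against 3766, 2909 and 3310 on the left. Of the factors of dorsally exiting motoneurons, Tbx20 reached 204 at most and Phox2a 94.4.

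Cxcr4 and Ackr3 are also found on vessels and blood cells. Of the tested genes, 0 of 8 for endothelium and pericytes, 0 of 6 for blood and microglia, 0 of 8 for spinal progenitors and 0 of 4 for ventral interneurons met the fold rule. Over all tested probe sets 3.94% met it on either side, so a count of 0 in lists this short says little about these cells. Endothelial sums were 3136 to 5088 on the right and 3363 to 4239 on the left, and the highest was that of the right pool of embryo 2. Kdr, a VEGF receptor, read 939 on the right and 1013 on the left in embryo 2, its highest values. Rgs5, the brightest of the list, read 1199 on the right and 603 on the left in embryo 2, its highest and lowest values. In the left pool of embryo 2, where Cxcr4 was highest, the endothelial sum was 3988, below the 4239 of the left pool of embryo 1. Blood sums, mostly the embryonic globin Hbb-y, were 24323 to 37894 on the right and 21802 to 39071 on the left. Over the 6 pools, log2 of the blood sum correlated with Ackr3 at 0.89 and with Cxcr4 at −0.82, and that of the endothelial sum with Cxcr4 at 0.60 and with Ackr3 at −0.71. They are descriptions, and the part of these cells in the receptor signals was not tested.

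**Figure D3:**
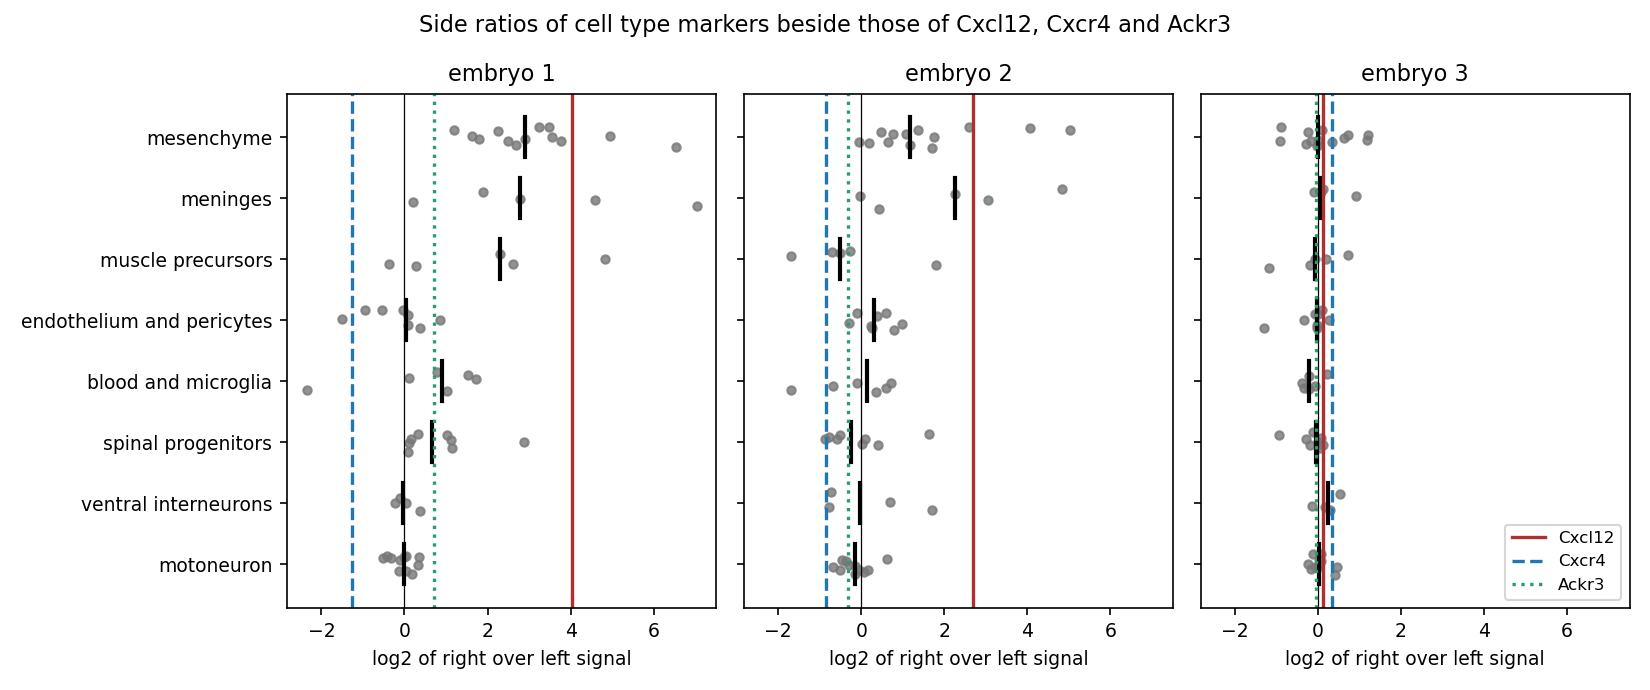
Log2 of right over left signal of tested marker genes of 8 cell types (grey points, black bar at the median), 1 panel per embryo, with vertical lines at the ratio of Cxcl12, Cxcr4 and Ackr3 in that embryo. Mesenchyme and meninges have medians of 2.91 and 2.78 in embryo 1 and 1.17 and 2.27 in embryo 2, on the side of Cxcl12, and near 0 in embryo 3, while motoneuron genes stay around 0 in each.

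Genes that bind, cut or relay the Cxcl12 signal were then read from the brightest tested probe set of each. Of 66 such genes 59 had a probe set of their own, and 40 were tested. In these probe sets the fold rule was met by 0 on the right and 0 on the left, against 3.94% of all tested probe sets for both sides together. With limma, 0 passed an adjusted p of 0.05 and 1 had an unadjusted p under 0.05, the G protein alpha subunit Gna13. The median log2(R/L) of the 40 was 0.01, with a range of −0.43 to 0.86. The signal was higher on the right in all 3 embryos for 5 genes and on the left for 6, against 12.7% and 10.8% of all tested probe sets.

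Other ligands of these receptors showed no ratio shared by the embryos at the size of the fold rule. Mif, a cytokine that also binds Cxcr4, read 1937, 1275 and 1451 on the right, against 1706, 1063 and 1345 on the left, and its log2(R/L) was 0.18, 0.26 and 0.11. Cxcl14 had 1.56, −0.11 and −0.03, and like Cxcl12 reached 200 in the right pool of embryo 1 alone. Cxcl11, the other chemokine that binds Ackr3, and Adm, which Ackr3 scavenges, stayed under 200. Of 8 further chemokines 2 were tested, Cxcl16 (−0.43 ± 0.63) and Cxcl1 (−0.25 ± 0.07), the second lower on the right in 3 of 3 embryos. Of the other chemokine receptors 2 of 9 were tested. These were the erythroid and venous receptor Ackr1 (625 to 847 on the right, 653 to 1239 on the left) and the microglial receptor Cx3cr1 (0.48 ± 0.68).

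Proteins that act on Cxcl12 outside the cell were read next. Mmp2, a gelatinase that cuts and inactivates Cxcl12, has 2 probe sets that disagreed. The slightly brighter one read 328, 472 and 286 on the right, against 431, 209 and 379 on the left. It was higher on the right in embryo 2 alone, with a log2(R/L) of −0.39, 1.17 and −0.41. The other probe set of Mmp2 read 605, 390 and 284 on the right, against 291, 237 and 251 on the left. With 1.06, 0.72 and 0.18 (0.65 ± 0.44) it was higher on the right in 3 of 3 embryos and met the fold rule, though not an adjusted p of 0.05 by limma (adjusted p = 0.974). Mmp14, which activates Mmp2, was higher on the right in 3 of 3 embryos in its brightest probe set, with 0.61, 0.23 and 0.37 (0.40 ± 0.19, adjusted p = 0.974 by limma). Its other tested probe set had 3.29, 1.53 and −0.81 and did not meet the rule. The peptidase Dpp4 and Mmp9 were under the limit. Of the accessory proteins, 3 were tested, with Sdc4, a heparan sulfate proteoglycan, at 2.28, −1.76 and −0.24, and the sialomucin Cd164, the brightest, at 0.16, −0.68 and −0.04. Ramp3, a receptor activity-modifying protein, was lower on the right in 3 of 3 embryos but close to 0 in embryos 2 and 3 (mean −0.33 ± 0.52).

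Inside the cell, none of the G protein subunits met the fold rule. All 10 were tested, each above 200 in every pool, and their mean log2 ratios ran from −0.40 to 0.14. Gnai3, an inhibitory subunit and the brightest, read 8695, 12164 and 11528 on the right, against 14589, 15350 and 10147 on the left. Its log2(R/L) of −0.75, −0.34 and 0.18 changed sign in embryo 3, as that of Cxcr4 did. Gna13 had −0.81, −0.33 and −0.07 (mean −0.40 ± 0.38, limma adjusted p = 0.974), lower on the right in 3 of 3 embryos.

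Proteins that end receptor signalling gave means of −0.33 (Arrb1) to 0.53 (Itch). Arrb2, the arrestin recruited by Ackr3 and Cxcr4, had 0.22, −0.36 and −0.03, and Grk5, the brightest receptor kinase, −0.26, −0.34 and −0.03. Itch, the ubiquitin ligase that sends Cxcr4 to lysosomes, had a large ratio in embryo 2 alone (2.42). Among the RGS proteins, which switch G proteins off, Rgs16 had the largest mean of all 40 genes, with 2.04, 1.21 and −0.67 (0.86 ± 1.39), and missed the fold rule through embryo 3. Rgs3 was the brightest and differed little (−0.01 ± 0.16). Of 10 tested effectors, the phospholipase Plcb3 had the highest mean (0.53 ± 0.32, higher on the right in 3 of 3 embryos) and the lipid kinase Pik3cb the lowest (−0.31 ± 0.59). Rhoa, the brightest, had 0.12 ± 0.33, and Diaph1, a formin, 0.01 ± 0.26.

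**Figure D4:**
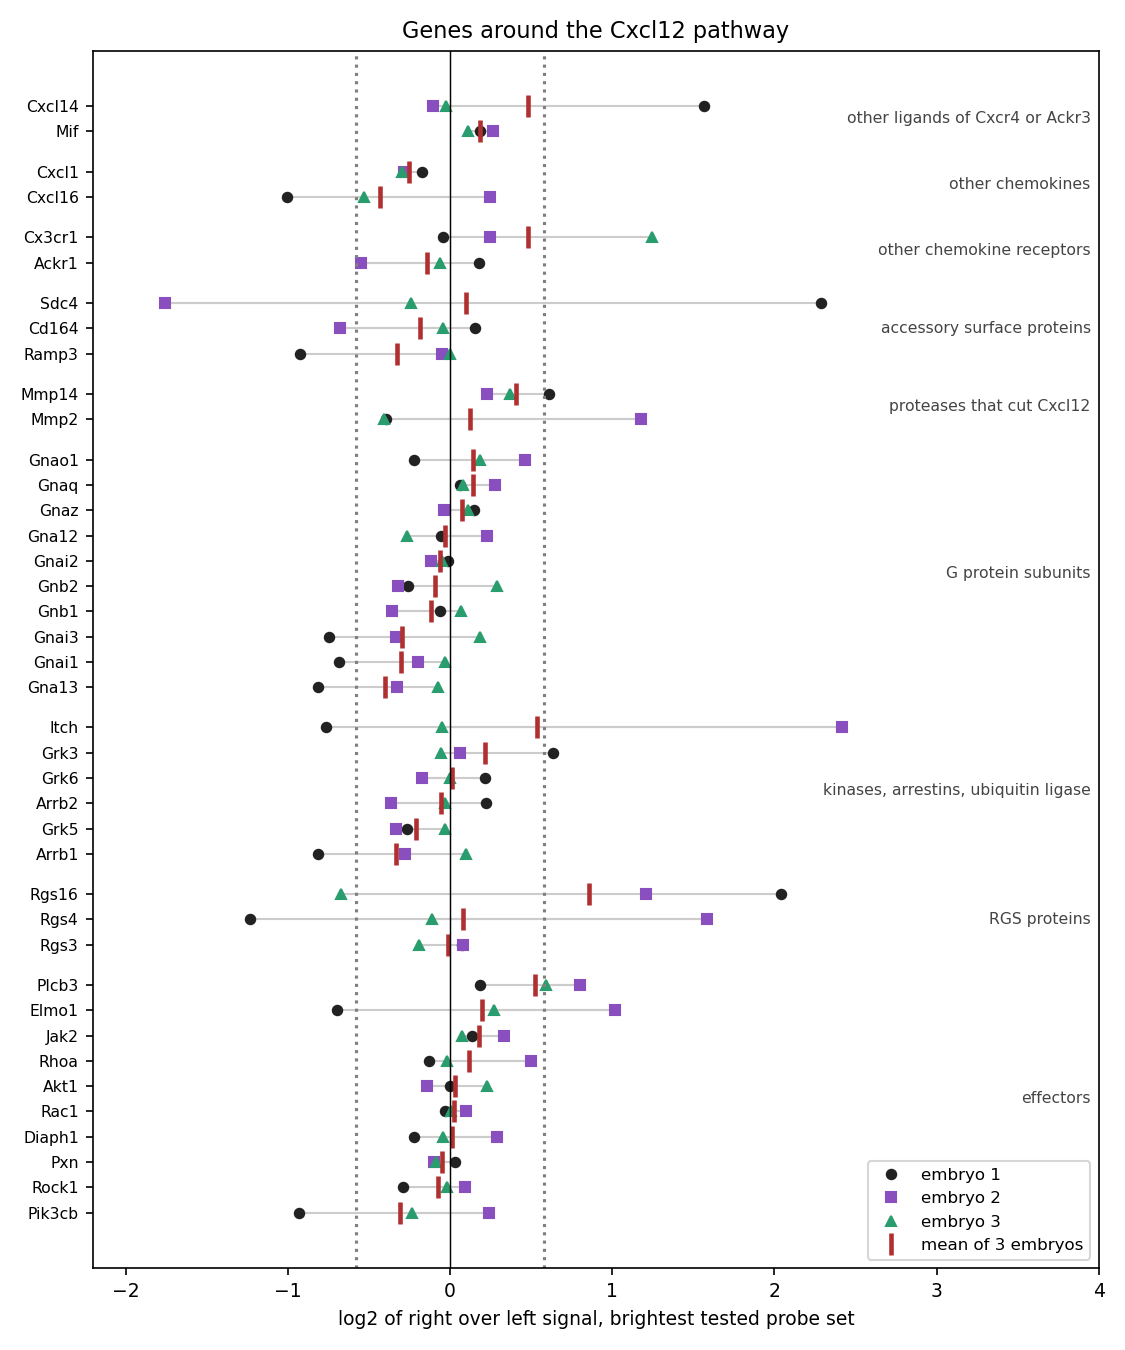
Log2 of right over left signal in each of 3 embryos (symbols) and their mean (red bar) for the 40 tested genes around the Cxcl12 pathway, grouped by role, with dotted lines at the 1.5-fold limit. The means of the G proteins lie between −0.40 and 0.14, and Rgs16, with the largest mean at 0.86, has embryo 3 on the left of 0.

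The genes whose log2 signal was most like that of a member over the 6 pools were taken from 10538 other genes, with the Pearson coefficient as the measure. For Cxcl12 they were Foxp4, Notch3, Mylpf, Ctss and Nfasc, at 0.99 each. Notch3, a receptor of mural cells and progenitors, read 478, 188 and 150 on the right, against 139, 73.0 and 180 on the left. Mylpf is a myosin light chain of skeletal muscle, and its signal was highest in the right pool of embryo 1 (323) and lowest in the left pool of embryo 2 (46.9), as for Cxcl12. For Cxcr4 they were Lrwd1, Tro, Stard4, Uxt and Pea15a, each highest in the left pool of embryo 2. For Ackr3 they were Zbtb14, Ercc8, Eid1, Cnot7 and Rpa3, at 0.98 to 0.99, each lowest in the right pool of embryo 2 and highest in the right pool of embryo 1. With 6 pools and this many genes, coefficients of such size describe the pools and carry no test.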

How the data were processed

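The authors hybridised each pool to a mouse GeneChip array and made the values with MAS5 in Affymetrix Expression Console (no version stated). They deposited linear signal intensity, and trimmed by 2% at either end the values of every array average 500. Present and absent calls, part of the filter of the study, were not used here. The 64 control probe sets were left out. The annotation gives 1 gene for 34945 of the rest, several for 932 and none for 9160. A gene was read from its brightest probe set (highest mean signal) annotated to it alone. Log2 signals, with nothing added, were tested with limma 3.58.1 (R 4.3.3). The model had terms for side and for embryo and a variance trend on the mean. The 2 pools of an embryo come from the same sections. As a check of this pairing, their deviations from the side means correlated at 0.241, 0.215 and 0.495. Lists were summarised with Python 3.11.15. The members and lists were chosen with earlier results of these data known. Named genes are the members, those of a list that met the fold rule, had its largest or smallest ratio or were brightest, others with a role stated beside them, and the 5 genes most like each member. The fit was tested on simulated data. Alternatives were 2 other normalizations, 50 added to each signal, other limits on signal or fold, each embryo left out, no term for embryo, no variance trend and the mean of all probe sets. Precision is limited by having 6 arrays. The 3 embryos were littermates, so p-values measure the spread within 1 litter.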

Additional observations from a re-analysis of the deposited data

How the results depend on the processing

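No member passed limma's adjusted p of 0.05 under any alternative run, with adjusted p from 0.917 to 1.00 for the tested probe sets of Cxcl12 and Cxcr4 and 0.972 to 1.00 for Ackr3. The log2(R/L) of Cxcl12 stayed above 0 (1.405 to 3.36 with embryos left out, 1.48 with 50 added), as did that of its second probe set (0.62 to 1.64, and 0.61 with 50 added), and that of Cxcr4 stayed below 0 (−1.05 to −0.26), with the fold rule met on the left without embryo 3. These last 2 probe sets were not tested with a limit of 500 or a mean of 200. All 3 ratios of both tested Cxcl12 probe sets were above 0, so leaving out an embryo could not change the sign of their means. Leaving out an embryo kept the tested probe sets. With the limit applied anew, Cxcl12 would not be tested without embryo 1, nor Cxcr4 without embryo 2. Ackr3 was −0.18 without embryo 1 and 0.33 without embryo 2. With embryos left out, Cxcl12 minus Cxcr4 was 1.66 to 4.41 and Cxcl12 minus Ackr3 1.59 to 3.16; with 50 added the second was 1.38. With the term for embryo removed, which gives up the pairing of pools, limma gave Cxcl12 an unadjusted p of 0.0577 (adjusted p = 1.00). The mean ratios, 2.28 for Cxcl12, and the fold rule do not use this term, so they could not change. The fold rule gave 333 probe sets on the right and 197 on the left with 50 added, 131 and 104 with a limit of 500, 234 and 176 with a mean of 200, 2805 and 1696 with no limit, 191 and 95 at 2-fold, and 84 and 49 with all 3 embryos past 1.5-fold. With embryos left out it gave 200 to 1070 on the right and 176 to 642 on the left, and limma called 0 to 1, the 1 being a probe set annotated to Morf4l1 and Morf4l1b, without embryo 1. Several list medians changed sign, including other chemokines (0.11 with no limit), other chemokine receptors (−0.17 with no limit), muscle precursors (−0.17) and spinal progenitors (−0.15) without embryo 1, ventral exit factors (−0.096 without embryo 2 to 0.032 without embryo 3) and endothelium (−0.093 without embryo 2 to 0.18 without embryo 1), and the 40 pathway genes with a mean of 200 (−0.053) or median scaling (−0.075). With a limit of 500, 1 protease met the fold rule on the right, Mmp2 through its other probe set. The cause was not tested. At signals near or below the array medians (99.9 to 118), as for Cxcl12 in most pools, the size of a ratio is uncertain.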

Other observations

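Of the pathway genes with a probe set of their own, 19 stayed under the limit of 200 in every pool and entered no comparison. Of these, 3 were higher on the right in 3 of 3 embryos (Cxcl11, Cxcr5 and Cd74) and 4 on the left (Cxcr2, Cxcr3, Cxcr6 and Mmp9), or 15.8% and 21.1%. Over all 23184 probe sets under the limit the shares were 15.4% and 9.77%. Those with values below were chosen after their values were seen. Cxcl11, a ligand of Ackr3 and Cxcr3, read 52.6, 68.7 and 22.0 on the right, against 42.2, 64.1 and 15.1 on the left. Cxcr5, a receptor of B cells, read 68.8, 45.5 and 59.2 on the right, against 29.2, 5.28 and 18.3 on the left. Cd74, the receptor of Mif, read 81.6, 126 and 123.4 on the right, against 49.6, 68.8 and 91.5 on the left. Mmp9, a gelatinase that also cuts Cxcl12, read 23.2, 16.0 and 47.5 on the right, against 59.2, 55.8 and 85.5 on the left. Most of these signals lay below the median of their array, so their ratios have no reliable size. Nkx6-1, a progenitor and motoneuron factor, was likewise higher on the right in 3 of 3 embryos, with 116, 178 and 60.1 on the right against 88.3, 54.6 and 14.2 on the left.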
